A study of Mus musculus with 6 samples.

Results

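The genes described here are 10 markers of GABAergic interneuron subtypes that do not encode neuropeptides: *Pvalb*, *Lhx6*, *Sox6*, *Crhbp*, *Elfn1*, *Lamp5*, *Ndnf*, *Calb2*, *Npas1* and *Nos1*. They were chosen by gene symbol among the 55421 genes of the deposited count table, and each symbol matched 1 Ensembl identifier. To examine the effects of chronic peripheral substance P (SP) on the hippocampus, hippocampal RNA was sequenced from 3 mice given SP and 3 given vehicle. All 6 animals were wild-type male C57BL/6N mice, and mice of 8 to 10 weeks entered the experiments. The SP group had 14 daily injections under the skin, each of 100 µL at 10 µM. The vehicle group was injected under the skin with the same volume of saline. Each mouse gave 1 stranded mRNA library of hippocampal tissue, so the tissue is a mixture of all its cell types, and fewer cells of a type cannot be told apart from less RNA per cell. Within each group the mice carry the numbers 1 to 3, which the labels call a batch. All directions below refer to the libraries as labelled, SP relative to vehicle. Markers of the principal hippocampal cells were present in each library, with sums of 517 to 592 CPM for 5 CA1, 80.2 to 114 CPM for 2 CA3 and 336 to 473 CPM for 6 dentate granule cell genes (CPM, counts scaled by the TMM-adjusted total of a library).

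Interneurons that release GABA are a minority of hippocampal neurons, but they set the timing and the gain of the pyramidal and granule cells. They arise mainly from the medial (MGE) and the caudal (CGE) ganglionic eminence of the embryo, and the subtypes keep a molecular trace of this origin. Cells from the MGE include the fast-spiking basket and axo-axonic cells, which contain parvalbumin, and the somatostatin cells of stratum oriens, which project to the distal dendrites of CA1. Cells from the CGE include the calretinin cells, many of which target other interneurons, and part of the neurogliaform cells. For this account *Pvalb*, *Lhx6*, *Sox6*, *Crhbp* and *Elfn1* were grouped as 5 MGE-type genes and *Lamp5*, *Ndnf*, *Calb2* and *Npas1* as 4 CGE-type genes. *Nos1* was kept apart, since cells of both lineages express it. *Lamp5* and *Ndnf* were placed in the CGE group although only part of the neurogliaform cells comes from there, so the grouping is approximate. Several of these genes are also expressed outside interneurons: *Sox6* in oligodendrocyte precursors, and *Calb2* in hilar mossy cells, immature granule cells and Cajal-Retzius cells, which also express *Ndnf*.

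None of the 10 markers passed the study's thresholds of FDR < 0.1 and |log2FC| > 0.3 in edgeR's quasi-likelihood test. Across all 17069 genes tested, 0.0293% passed. *Sox6* was the only marker with an unadjusted p under 0.05, which is 1 of 10 genes where 10.1% of all tested genes had such a p. The SP and vehicle libraries did not overlap in *Sox6* and *Lamp5*, both lower in SP, while 18.2% of all genes tested did not overlap in either direction. Of all genes, 9.03% were lower and 9.19% higher without overlap. *Sox6*, *Crhbp* and *Lamp5* were lower in all 3 replicate pairs, as were 16.7% of all genes tested. For *Sox6* and *Lamp5* this follows from the absence of overlap. Log2 fold changes ran from -0.24 for *Sox6* to 0.23 for *Npas1*. The median over the 10 markers was -0.069, where that of all genes tested was 0.0015. Of the markers, 8 had a negative value, compared with 49.5% of all genes tested. The 1 marker with a small p and the 2 without overlap are close to what those shares give for 10 genes. DESeq2 called 0 of the 10 with the replicate block and 0 without it, and found an unadjusted p under 0.05 for 0 and 1 of them.

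**Figure D1:**
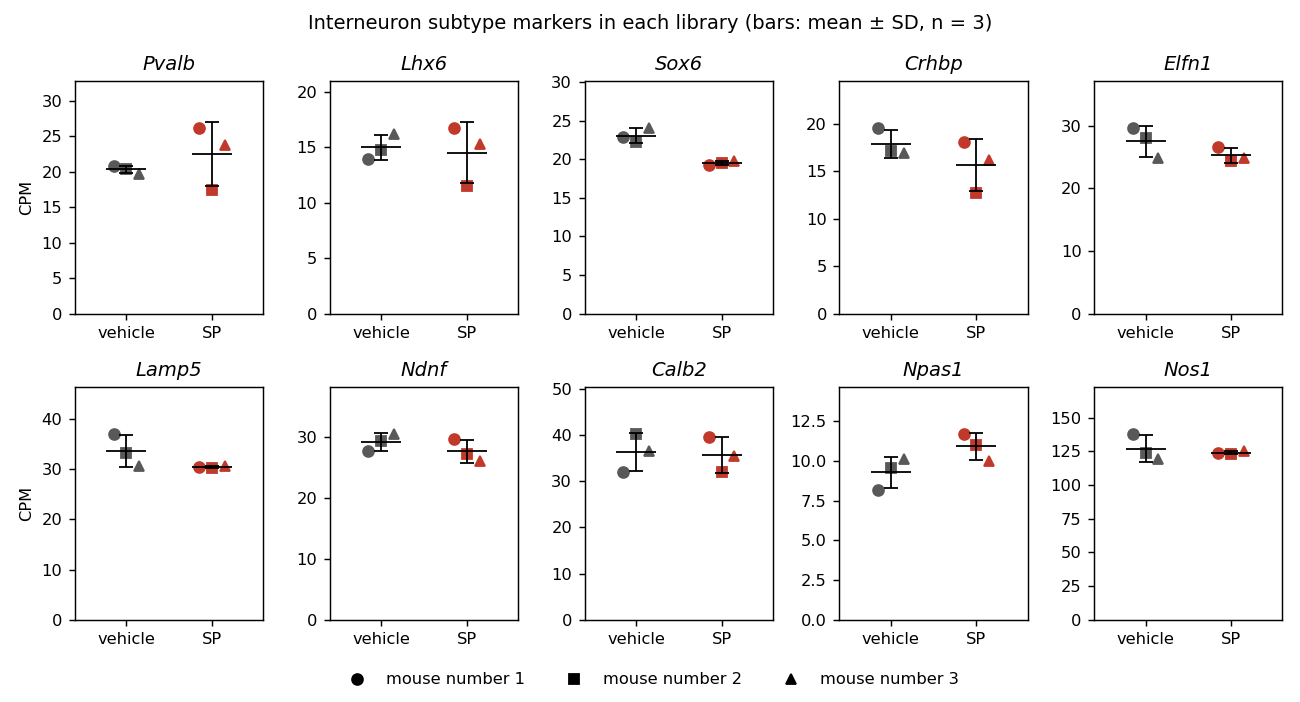
Expression of the 10 markers in each library, in CPM (y axis from 0), for vehicle (grey) and SP (red). Symbols give the mouse number and bars the mean ± SD of 3 mice. The 3 SP libraries of *Sox6* lie between 19.3 and 19.8 CPM, below each vehicle library, while SP 2 is lowest in 6 of the 10 genes.

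All 10 markers were well measured. A marker had between 190 and 3280 counts in a library, in libraries of 22349964 to 27605935 counts. At 190 counts, the lowest value of *Npas1*, counting error alone is 7.25% of the count, and at 2773 counts, the lowest of *Nos1*, it is 1.90%. Levels are given below in CPM, and per kb of the gene's summed exon length where genes are compared with each other.

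Per length, *Calb2* and *Pvalb*, which encode the calcium-binding proteins calretinin and parvalbumin, were at the top. In the vehicle group *Calb2* had 20.9 ± 2.35 CPM per kb (SD, n = 3 mice) and *Pvalb* had 19.5 ± 0.531 CPM per kb. The order of this pair was not fixed, as *Calb2* was the higher gene in 3 of 6 libraries. *Lamp5*, *Nos1* and *Crhbp* followed with 11.5, 11.4 and 9.93 CPM per kb in the vehicle group. *Elfn1* had 6.59 ± 0.595 CPM per kb. *Lhx6*, *Npas1* and *Ndnf* lay close together at 3.12, 3.08 and 2.88 CPM per kb, and *Sox6* was lowest with 1.56 ± 0.0662 CPM per kb. Over all 6 libraries the ranges of neighbours in this order overlapped, except between *Pvalb* and *Lamp5*, between *Elfn1* and *Lhx6*, and between *Ndnf* and *Sox6*. Per kb of the longest transcript, the vehicle means were 20.7 for *Pvalb* and 17.2 for *Lamp5*. Those of *Elfn1* and *Lhx6* were 7.17 and 4.31, and those of *Ndnf* and *Sox6* were 2.88 and 2.66. The means of these pairs thus lay closer together than per kb of summed exon length. Those of *Calb2* and *Pvalb* lay further apart, at 25.4 and 20.7, so the gaps in this order depend on the length used. Whether the ranges overlapped at the longest transcript was not computed. Unscaled for length, the most abundant marker was *Nos1*, at a mean CPM above that of 90.0% of the genes tested, and the least abundant was *Npas1*, above 39.6%.

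**Figure D2:**
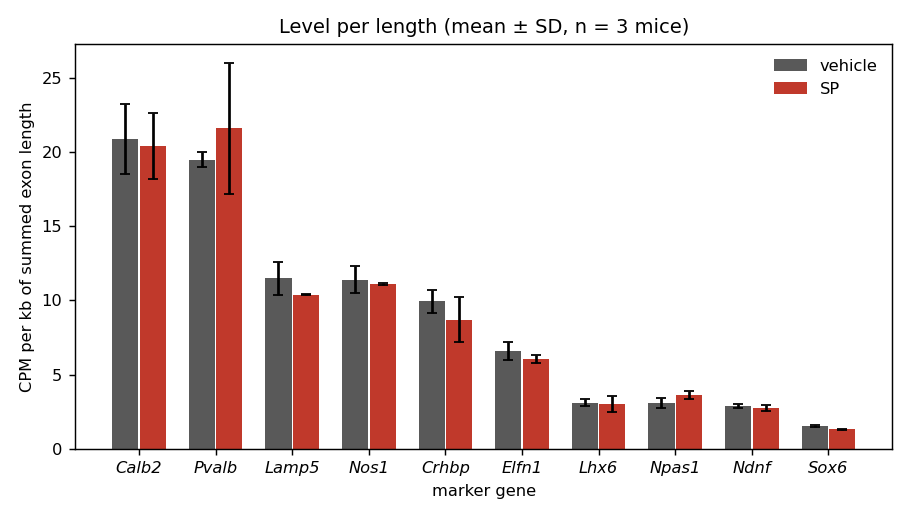
Level of each marker per kb of summed exon length (y axis, CPM per kb, from 0), as mean ± SD of 3 vehicle (grey) and 3 SP (red) mice. The genes fall from about 20.9 CPM per kb for *Calb2* to 1.56 for *Sox6* in vehicle. *Lhx6*, *Npas1* and *Ndnf* stand at nearly the same height in vehicle, where *Npas1* has 3.08 CPM per kb, and 3.62 in SP.

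Among the MGE-type genes, *Sox6* encodes a transcription factor that acts downstream of *Lhx6* while these interneurons find their position and mature. The gene (ENSMUSG00000051910) lies on chromosome 7 of GRCm38 from 115470872 to 116038796, minus strand. Its expression was 22.9, 22.2 and 24.1 CPM in vehicle 1, 2 and 3, and 19.3, 19.5 and 19.8 CPM in SP 1, 2 and 3. Each SP library was thus below each vehicle library, and the SP libraries differed among themselves by less than the vehicle libraries did, with SDs of 0.297 and 0.982 CPM. With all mice the log2 difference of *Sox6* was -0.24 (standard error 0.0705, 95% interval -0.41 to -0.075, unadjusted p = 0.0105, FDR 0.394 from edgeR). That 3 of 3 replicate pairs were lower in SP follows from the absence of overlap. In each setting that left out a replicate number or a single library its log2 fold change stayed between -0.27 and -0.21. As its p was only number 454 in the ranking of 17069 genes, the difference did not pass the adjustment for all genes.

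Oligodendrocyte precursors also express *Sox6*. Of 6 other markers of these precursors, 0 had an unadjusted p under 0.05 in the lower direction and 1, *Olig1*, had it in the higher direction. Their summed level was 248 to 276 CPM in vehicle and 272 to 286 CPM in SP. *Satb1*, which encodes a chromatin organizer needed for the maturation of MGE-derived interneurons, had 96.5, 90.8 and 94.4 CPM in vehicle and 79.2, 72.8 and 82.3 CPM in SP. It was chosen for mention after its values were seen, and its groups did not overlap either (log2 fold change -0.27, standard error 0.0539, FDR 0.308 from edgeR).

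RefSeq lists 6 promoter windows for *Sox6* and 1 for *Npas1*, the markers with the lowest and the highest log2 fold change. The 250 bases upstream of the most distal *Sox6* start whose upstream bases lie in no exon of the gene (chr7:116031048-116031297, GRCm38.p6, minus strand) and of the *Npas1* start (chr7:16476781-16477030, minus strand) are given 5′ to 3′ on the strand of the gene. They show the sequence before a single start of each gene. Capitals mark the GC box GGGCGG, read on either strand.
Sox6: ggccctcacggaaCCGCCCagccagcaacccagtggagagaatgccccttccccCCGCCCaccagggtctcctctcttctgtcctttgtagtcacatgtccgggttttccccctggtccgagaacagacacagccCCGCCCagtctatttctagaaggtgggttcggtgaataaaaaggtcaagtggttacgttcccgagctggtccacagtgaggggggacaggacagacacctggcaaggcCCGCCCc
Npas1: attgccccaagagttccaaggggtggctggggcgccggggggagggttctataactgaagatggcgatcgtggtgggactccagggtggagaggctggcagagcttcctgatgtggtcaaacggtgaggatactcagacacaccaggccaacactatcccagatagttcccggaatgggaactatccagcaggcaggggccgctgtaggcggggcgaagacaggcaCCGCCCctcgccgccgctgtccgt

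The *Sox6* window printed held 4 GC boxes and the *Npas1* window held 1, while 32.7% of 32851 RefSeq windows of this length held at least 1. Both were rich in G and C, with 60.8% and 62.4% against a median of 52.4%. Neither held the TATA box TATAAA, found in 12.4% of all windows, the cAMP response element TGACGTCA, found in 1.55%, or ACGTG, the core of many sites of the protein family that includes NPAS1, found in 16.6%. Each motif was searched on both strands. The printed window was the exception among the 6 of *Sox6*: the other 5 held 0 GC boxes and at most 45.2% G and C, 1 of them held TATAAA and 1 held ACGTG. The deposited counts are summed over all starts of a gene, so that they do not show which start was used.

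*Lhx6* encodes the LIM homeodomain factor that specifies MGE-derived interneurons and stays on in the adult. It had 14.0, 14.8 and 16.2 CPM in vehicle and 16.8, 11.5 and 15.3 CPM in SP. The SP libraries held both the highest and the lowest value, and the groups overlapped. For *Lhx6* the log2 fold change was -0.059 (standard error 0.123, 95% interval -0.35 to 0.23, FDR 0.902 from edgeR), and it was 0.088 without replicate 2.

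The parvalbumin gene *Pvalb* (chromosome 15 of GRCm38 from 78191114 to 78206400, minus strand) showed the same order of the SP libraries. Its vehicle libraries were close together at 20.8, 20.4 and 19.7 CPM, and those of SP were at 26.2, 17.4 and 23.8 CPM. SP 1 and SP 3 thus lay above the vehicle range and SP 2 below it. The coefficient of variation was 2.73% in vehicle and 20.3% in SP. With all mice the log2 fold change was 0.13 (standard error 0.116, 95% interval -0.14 to 0.40, FDR 0.743 from edgeR). Without both mice of number 2 it was 0.31 with an FDR of 0.238, and without replicate 1 it was 0.027.

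*Crhbp* encodes a secreted protein that binds corticotropin-releasing hormone and is made by somatostatin and parvalbumin cells. It had 19.6, 17.1 and 16.9 CPM in vehicle and 18.1, 12.7 and 16.2 CPM in SP. Each SP library was below the vehicle library of the same number, yet the groups overlapped through SP 1. The log2 fold change of -0.20 (standard error 0.0954, 95% interval -0.42 to 0.024, FDR 0.534 from edgeR) was -0.089 without replicate 2.

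*Elfn1* encodes a postsynaptic protein that recruits the glutamate receptor mGluR7 to the excitatory inputs of somatostatin cells. Its levels were 29.7, 28.0 and 24.8 CPM in vehicle and 26.6, 24.4 and 24.8 CPM in SP. The mice of number 3 had the same level to 3 digits, and the groups overlapped (log2 fold change -0.12, standard error 0.0717, 95% interval -0.29 to 0.049, FDR 0.617 from edgeR). It was -0.078 without replicate 2 and -0.18 without replicate 3.

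Among the CGE-type genes, *Lamp5* encodes a protein of the LAMP family and marks neurogliaform cells. It had 37.1, 33.3 and 30.6 CPM in vehicle and 30.5, 30.3 and 30.6 CPM in SP. Although the groups did not overlap, vehicle 3 and SP 3 had the same level to 3 digits, and the separation of the groups rested on that gap. For *Lamp5* the log2 fold change was -0.14 (standard error 0.0742, 95% interval -0.31 to 0.033, FDR 0.568 from edgeR), or -0.069 without replicate 1.

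*Ndnf*, which encodes a secreted protein also found in neurogliaform cells, had 27.6, 29.3 and 30.5 CPM in vehicle and 29.7, 27.1 and 26.0 CPM in SP. The groups overlapped, and the log2 fold change was -0.080 (standard error 0.0815, 95% interval -0.27 to 0.11, FDR 0.787 from edgeR). Without replicate 1 it was -0.17, and without replicate 3 it was -0.0054. *Reln*, a gene of Cajal-Retzius cells and of many interneurons, had the lowest log2 fold change of 4 tested Cajal-Retzius markers, -0.44 (FDR 0.135 from edgeR). *Lhx1* had the highest, 1.07 (FDR 0.461 from edgeR), at only 0.323 to 1.36 CPM and with overlap between the groups.

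The calretinin gene *Calb2* had 32.1, 40.3 and 36.6 CPM in vehicle and 39.6, 31.9 and 35.4 CPM in SP. The groups spanned nearly the same range. The log2 fold change was -0.030 (standard error 0.113, 95% interval -0.29 to 0.23, FDR 0.952 from edgeR), -0.19 without replicate 1 and 0.13 without replicate 2. Other cells that express *Calb2* were represented by 4 markers of hilar mossy cells, with a median log2 fold change of 0.062, and 5 markers of immature granule neurons, with a median of 0.095. The latter went both ways, from *Dcx*, a microtubule protein gene of migrating neurons, at -0.43 without overlap between the groups (FDR 0.347 from edgeR), to *Eomes* at 0.55 (FDR 0.458). Markers of thalamic neurons, another source of calretinin transcripts outside the hippocampus, had a median of 0.030 over 4 genes and summed to 61.8 to 82.3 CPM in vehicle and 71.1 to 84.3 CPM in SP.

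*Npas1* encodes a transcription factor of the bHLH-PAS family that is found mostly in CGE-derived cells. It had the highest log2 fold change of the 10 markers and the lowest CPM unscaled for length, with 8.17, 9.54 and 10.1 CPM in vehicle and 11.7, 11.0 and 10.0 CPM in SP. SP 1 and SP 2 were above the vehicle range, whereas SP 3 lay within it. The log2 fold change was 0.23 (standard error 0.121, 95% interval -0.052 to 0.51, FDR 0.566 from edgeR), higher in 2 of 3 replicate pairs. It was 0.092 without replicate 1 and 0.35 without replicate 3.

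*Nos1* encodes the neuronal nitric oxide synthase, which marks ivy and neurogliaform cells and some long-range somatostatin cells. It was measured at 138, 124 and 119 CPM in vehicle and at 124, 123 and 125 CPM in SP. The SP libraries fell within the vehicle range. The log2 fold change was -0.037 with the smallest standard error of the 10 markers (0.0591, 95% interval -0.18 to 0.10, FDR 0.867 from edgeR), and it was 0.023 without replicate 1.

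**Figure D3:**
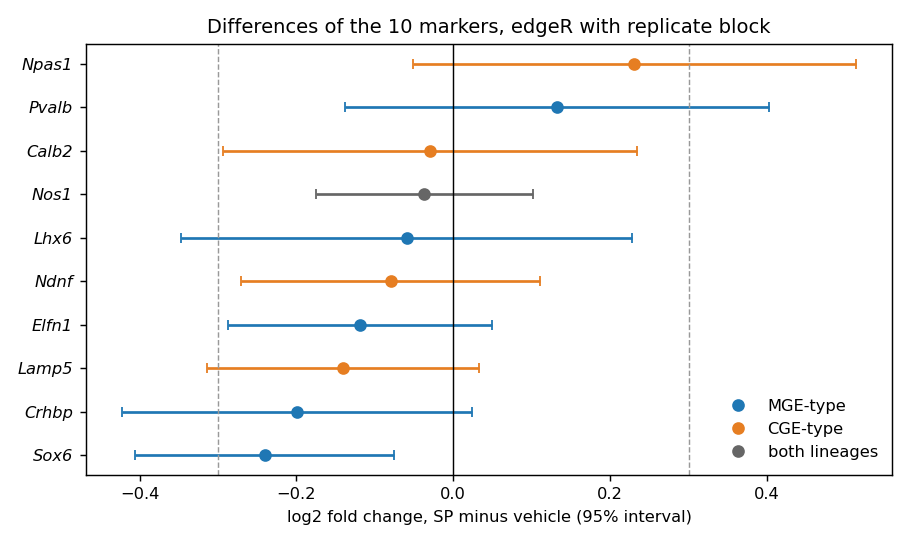
Log2 fold change of each marker (x axis, SP minus vehicle) with its 95% interval from edgeR with the replicate block, for MGE-type (blue), CGE-type (orange) and both lineages (grey). Dashed lines mark the study's fold change threshold of 0.3 in each direction. Only the interval of *Sox6* lies on a single side of 0, and those of *Elfn1*, *Ndnf*, *Calb2* and *Nos1* lie between the dashed lines.

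The intervals set how large a difference could have gone unseen. In *Elfn1*, *Ndnf*, *Calb2* and *Nos1* the whole 95% interval lay within the fold change threshold of 0.3. In the other 6 markers the interval reached past it in the direction of the estimate, and for *Lhx6* it spanned 0.288 to each side of the estimate, the widest of the 10.

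Averaged per library, the 5 MGE-type genes lay 0.13, 0.30 and 0.28 below the 4 CGE-type genes on the log2 CPM scale in vehicle, and 0.28, 0.49 and 0.23 below them in SP. The ranges overlapped, and SP 2 stood lowest. These averages are not scaled for length, so that only their change between libraries is of use. The mean log2 CPM of the MGE-type genes was 4.04 in SP 2 and 4.29 to 4.39 in the other 5 libraries. Differences between the SP and vehicle means of the MGE-type genes (-0.099) and the CGE-type genes (-0.0037) are values only, since the genes of a class are not replicates. The averages were not computed without *Lamp5* or *Ndnf*.

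Library SP 2 was lowest in 6 of the 10 markers, namely *Pvalb*, *Lhx6*, *Crhbp*, *Elfn1*, *Lamp5* and *Calb2*, and highest in 0. Over all genes tested, SP 2 was lowest in 21.7% and highest in 24.4%. The genes that most interneurons share showed the pattern more fully. In 11 of 11 such genes SP 2 was the lowest library, among them *Gad1* and *Gad2*, which encode the enzymes that make GABA, *Slc32a1*, the vesicular GABA transporter, and the *Dlx* homeobox genes. *Gad1* had 281, 317 and 290.0 CPM in vehicle and 290.0, 243 and 309 CPM in SP. *Gad1* was chosen for these values after they were seen. In the same library the 7 markers of oligodendrocytes and myelin were at their highest, with a sum of 3540 CPM where the other 5 libraries had 2120 to 2640 CPM, and the 11 markers of neocortical layers summed to 282 CPM, where the others had 338 to 380.0 CPM. SP 2 was lowest in 7 of the 11 neocortical markers and highest in 3. The part of these lists' differences in the marker values was not tested.

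**Figure D4:**
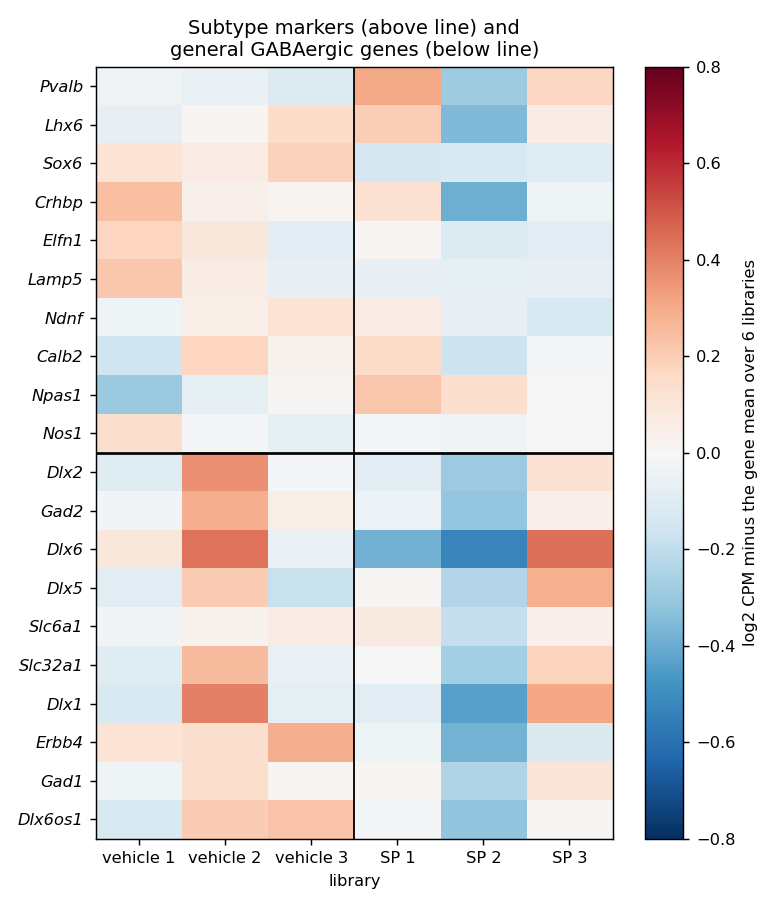
Log2 CPM of each gene minus its mean over the 6 libraries (color scale from -0.8 to 0.8), for the 10 subtype markers above the horizontal line and 10 of the 11 general GABAergic genes below it; columns are libraries. SP 2 is blue in each general gene shown, while *Npas1* is above its mean there and *Nos1* is close to it.

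The median log2 fold change of the 11 general GABAergic genes was -0.17, with values from -0.35 for *Erbb4* to 0.041 for *Dlx5*. None passed FDR < 0.1 and |log2FC| > 0.3, and *Erbb4*, which encodes a neuregulin receptor of interneurons, was the only gene with an unadjusted p under 0.05. Their summed level was 966 to 1080.0 CPM in vehicle, 997 and 1030.0 CPM in SP 1 and SP 3, and 825 CPM in SP 2. Without both mice of number 2 the median was 0.065. All 9 peptide genes of interneurons were tested and 0 passed the thresholds. Their median was -0.19, from -0.35 for *Tac1* to 0.13 for *Cck*, which pyramidal cells also express, and it was -0.0074 without replicate 2. *Vip* was lower and *Cck* higher at an unadjusted p under 0.05. SP 2 was lowest in 7 of the 9, with 88.9 CPM of *Sst* where the other libraries had 136 to 142 CPM. *Vip* and *Sst* were named after their values were seen.

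Other non-peptide markers of the same classes were read beside the 10. Of 12 MGE-type genes, *Chrna2* was too low to be tested, and of the remaining 11 genes 0 passed the thresholds, 3 were lower at an unadjusted p under 0.05 and 0 were higher, where 5.59% and 4.48% of all genes did so. The 3 genes, named after their values were seen, were *Satb1*, *Syt2*, which encodes a fast calcium sensor of parvalbumin terminals, and *Grin3a*, an NMDA receptor subunit of somatostatin cells. Log2 fold changes ran from -0.35 for *Grin3a* to 0.31 for *Nkx2-1*, with a median of -0.15, which was -0.073 without replicate 2. *Syt2* had 24.8, 25.6 and 22.7 CPM in vehicle and 19.9, 18.4 and 21.0 CPM in SP, without overlap (log2 fold change -0.30, standard error 0.0872, FDR 0.385 from edgeR). Of 8 CGE-type genes, all tested, 0 passed the thresholds, 1 was lower and 0 higher at an unadjusted p under 0.05, 4 had a negative and 4 a positive value, and the median was 0.018. The lowest was *Nr2f2*, a nuclear receptor gene of CGE cells, at -0.55 (FDR 0.335 from edgeR). It had 39.7, 34.1 and 41.8 CPM in vehicle and 33.9, 17.4 and 30.0 CPM in SP, so that the groups did not overlap and SP 2 was lowest.

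To set the markers against the amount of interneuron RNA in each library, their log2 CPM was taken relative to the mean log2 CPM of *Gad1*, *Gad2* and *Slc32a1*. On this scale *Sox6* had -2.45, -2.77 and -2.43 in vehicle and -2.74, -2.46 and -2.82 in SP, so that its groups overlapped (difference -0.12, two-sided exact permutation p = 0.5). *Npas1* had -3.94, -3.99 and -3.68 in vehicle and -3.46, -3.29 and -3.81 in SP, a difference of 0.35 (exact permutation p = 0.2). *Pvalb* differed by 0.25 (exact permutation p = 0.2), with -2.29, -2.62 and -2.56 in SP and -2.59, -2.90 and -2.72 in vehicle. This permutation does not use the replicate numbers. Within same-numbered pairs *Pvalb* was 0.30, 0.28 and 0.16 higher in SP, and it was the only marker that moved the same way in all 3 pairs on this scale. Its difference was 0.22 to 0.29 when a replicate number was left out. The share of all genes that moved the same way in all 3 pairs was not computed on this scale. The count therefore does not set *Pvalb* apart from other genes. In CPM, *Pvalb* was lower in SP 2 than in vehicle 2 (17.4 against 20.4), and the 3 reference genes were also lowest in SP 2. The other 7 markers differed by -0.082 for *Crhbp* to 0.091 for *Calb2*. All 10 markers overlapped between the groups, and 3 mice against 3 cannot give a p below 0.1 in this test.

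Tissue around the hippocampus that also contains interneurons can enter a dissected sample. For the 11 markers of neocortical layers the median log2 fold change was -0.17, with 4 genes lower and 1 higher at an unadjusted p under 0.05, where 5.59% and 4.48% of all genes did so, from -1.11 for *Ccn2* to 0.58 for *Rspo1*. Their sum did not overlap between the groups, with 363 to 380.0 CPM in vehicle and 282 to 354 CPM in SP. Taken singly, 4 of the 11 genes were lower and 1 was higher without overlap. *Tshz2*, named after its values were seen, had 66.3, 66.2 and 62.6 CPM in vehicle and 38.6, 22.3 and 50.5 CPM in SP. The sum without *Tshz2* was not computed, so that the gap may rest on this gene. The 3 subiculum markers had a median of -0.48 and sums of 97.0 to 108 CPM in vehicle and 74.9 to 94.9 CPM in SP. Without replicate 2 the neocortical median was -0.061 and that of the subiculum was -0.12. Without SP 2 and with no block the neocortical median was -0.0225 and that of the subiculum was -0.33. In CA3, *Bok* and *Grik4* had 0.38 and 0.22, and the 6 markers of dentate granule cells had a median of 0.24. The 5 CA1 markers had a median of -0.16 and the 5 striatal markers one of -0.031. Among non-neuronal cells, medians were -0.0048 for 6 astrocyte, -0.031 for 5 microglial, 0.11 for 4 endothelial, 0.35 for 7 oligodendrocyte and -1.26 for 6 choroid plexus markers, whose sum ranged from 170.0 CPM in SP 1 to 4700.0 CPM in vehicle 3. Without SP 1 and with no block the choroid plexus median was -0.33, and without replicate 2 the medians were 0.16 for oligodendrocyte and 0.12 for dentate granule cell markers. None of the genes of these 11 lists passed FDR < 0.1 and |log2FC| > 0.3. Their part in the values of *Sox6*, *Lamp5* and the other markers was not tested.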

How the data were processed

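Each of the 6 mice contributed 1 RNA library. The authors deposited estimated counts per gene, made by Salmon after trimming with TrimGalore and STAR alignment to GRCm38, unscaled for library size or length. The annotation release is not given in the sources used here. Of the deposited values 9.77% were not whole, and all were rounded. Columns were matched to mice by group and number in the labels.

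Tests used edgeR 4.0.16 in R 4.3.3: filterByExpr on the design (minimum count 10, total 15), TMM, a block for the replicate number, glmQLFit, glmQLFTest, and Benjamini-Hochberg adjustment over 17069 genes. Intervals are at 95%, and standard errors were computed as |log2FC| over the square root of the F statistic of the test. The block follows the study's adjustment for replicates and the batch label. Deviations from the group means in same-numbered mice had Pearson's r of 0.0118, -0.0798 and 0.0385 across genes. Nothing says how far a batch was shared. The p-values of the main fit rest on the spread between these mice that is left after the block. For each gene, glmQLFit combines this spread with that of all genes tested. Alternatives used limma 3.58.1 (voom), DESeq2 1.42.0, other filters and scalings, and fits without the block, a replicate number or a library. The fits were tested on simulated data.

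Positions and lengths came from GENCODE M21, on the same GRCm38 build, and promoter windows from RefSeq (GRCm38.p6), which held 8 of the 10 genes. Annotated genes overlap *Lhx6* and *Nos1* on the same strand. Counting by strand was not stated, so reads of the opposite-strand neighbours of *Sox6*, *Elfn1*, *Npas1* and *Nos1* may be mixed in. At this depth a count of 0 allows up to 0.109 to 0.134 CPM (3 counts of a library's total, counting error only).

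The 10 markers and the 20 lists of other genes were chosen with earlier results of these data known. Named are the 10 markers, the genes with the highest and lowest log2 fold change of a list, and others where stated. The values of 1 general GABAergic gene are not reported here.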

Additional observations from a re-analysis of the deposited data

How the results depend on the processing

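The number of markers past the thresholds was 0 in all 19 alternative settings. The number of all genes past them was 5, and it was 2 with no replicate block, 384 with no filter on low counts, 0 with at least 10 counts in every library, 2 with limma-voom, 36 and 132 with DESeq2 with and without the replicate block, and 0 at an FDR under 0.05. It ranged from 9 to 36 when both mice of a number were left out, and from 1 (without vehicle 1) to 357 (without SP 3) when a single library was left out with no block. The cause was not tested. Leaving out the replicate block changed no call among the markers, and *Sox6* was at -0.24 with an FDR of 0.282 without it. Of 170 alternative values of the markers' log2 fold changes, 8 turned in sign, and each did so when mice were left out. *Lhx6* ranged from -0.22 to 0.095, with 0.0884 without replicate 2 and 0.0098 without vehicle 3. *Calb2* ranged from -0.19 to 0.13, with 0.0501 without vehicle 2 and 0.0439 without SP 2, and *Nos1* from -0.091 to 0.024. Relative to *Gad1*, *Gad2* and *Slc32a1*, the differences ranged from -0.027 to 0.18 for *Lhx6*, -0.34 to 0.014 for *Sox6*, -0.15 to 0.098 for *Elfn1*, -0.21 to 0.13 for *Lamp5*, -0.14 to 0.23 for *Ndnf* and -0.12 to 0.22 for *Nos1* when a replicate number was left out. With *Gad1* and *Gad2* alone as reference, that of *Lamp5* was 0.0059. Medians of lists ranged from -0.59 to -0.12 for subiculum (from -0.5132 with the block), -0.21 to -0.022 for CA1, 0.23 to 0.38 for CA3 and -0.12 to 0.062 for striatal markers without single replicates, and likewise from -1.98 to -0.33 for choroid plexus, 0.16 to 0.52 for oligodendrocytes, 0.12 to 0.43 for dentate granule cells, -0.24 to -0.0225 for neocortical layers, -0.26 to 0.25 for Cajal-Retzius cells, -0.14 to 0.49 for mossy cells and -0.099 to 0.15 for thalamic neurons. Per kb of the longest transcript, the vehicle means were 20.7 for *Pvalb*, 4.31 for *Lhx6*, 2.66 for *Sox6*, 17.2 for *Lamp5*, 25.4 for *Calb2* and 12.6 for *Nos1*. With 3 mice a group, estimated differences smaller than the half-widths of the intervals, 0.14 to 0.29 on the log2 scale, had no unadjusted p under 0.05. A larger difference need not pass the thresholds over all genes. *Sox6*, at -0.24 with a half-width of 0.165, had an FDR of 0.394 in the main fit.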
